A study of Mus musculus with 15 samples.

Results

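The Wnt signalling genes described here are the Wnt ligands, their Frizzled receptors and Lrp coreceptors, the R-spondins, the secreted antagonists of the Sfrp and Dkk families with Wif1 and Frzb, and the feedback gene Axin2. They were chosen by symbol, and the brightest probe stood for each gene. The array held 44 of them among 15967 named genes, and 27 passed a filter on dim probes, among 9531 genes tested. The expression profiles came from whole kidneys of Balb/c mice at embryonic day 16 postcoitum (E16d), postnatal day 1 (PN1d) and postnatal day 7 (PN7d). The mice received no treatment, and each age had 5 Illumina MouseRef-8 arrays, 15 in all. The study's methods speak of biological replicates, though in another number than the 5 samples per age that the labels give, and no label says whether each sample was a separate animal. Part of the spread behind each p-value may then be technical. No label names a litter or a processing batch, and if these went with age they cannot be told apart from it. Each comparison asked how the expression of a gene differed between 2 of the ages, that is across birth, over the first week, and over the whole interval.

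Wnt proteins are secreted lipid-modified ligands. They bind a Frizzled receptor together with the coreceptors Lrp5 or Lrp6, and this holds back the complex that degrades beta-catenin, which then enters the nucleus and acts with TCF factors on target genes. R-spondins strengthen the signal by keeping Frizzled at the cell surface, Sfrp proteins, Wif1 and Frzb bind the ligands outside the cell, and Dkk1 blocks Lrp5 and Lrp6. In the mouse kidney, Wnt9b from the ureteric bud and Wnt4 in the induced mesenchyme are needed for nephrons to form, Wnt11 marks the tips of the branching bud, and Wnt7b of the collecting duct is needed for the medulla.

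Promoters are shown for Dkk1, Wnt4 and Sfrp2, which were lower by more than 1.5-fold at PN7d than at E16d, and for the target gene Axin2, also lower at PN7d. Fzd3 and Rspo3 were lower by more than 1.5-fold too, but no promoter sequence was available for them. The set was chosen after the values were seen. Each is the stretch of 250 bases before the start of the gene, 5′ to 3′ on the strand of the gene, from RefSeq (GRCm38.p6). Capitals mark CTTTGA, the core of the TCF binding motif, or its reverse complement TCAAAG. Dkk1 lies at chr19:30549497-30549746 (minus strand), Wnt4 at chr4:137277385-137277634 (plus strand), Sfrp2 at chr3:83766071-83766320 (plus strand) and Axin2 at chr11:108920099-108920348 (plus strand).
Dkk1: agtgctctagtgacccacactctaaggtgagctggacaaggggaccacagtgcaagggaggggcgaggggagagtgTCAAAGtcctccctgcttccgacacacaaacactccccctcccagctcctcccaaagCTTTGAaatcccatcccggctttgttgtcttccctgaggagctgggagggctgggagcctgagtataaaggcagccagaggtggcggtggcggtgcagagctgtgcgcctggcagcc
Wnt4: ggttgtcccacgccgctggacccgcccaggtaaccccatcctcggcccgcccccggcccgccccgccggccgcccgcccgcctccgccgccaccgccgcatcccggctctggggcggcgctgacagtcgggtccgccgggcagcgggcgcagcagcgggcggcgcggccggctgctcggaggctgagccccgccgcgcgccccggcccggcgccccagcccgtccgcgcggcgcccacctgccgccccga
Sfrp2: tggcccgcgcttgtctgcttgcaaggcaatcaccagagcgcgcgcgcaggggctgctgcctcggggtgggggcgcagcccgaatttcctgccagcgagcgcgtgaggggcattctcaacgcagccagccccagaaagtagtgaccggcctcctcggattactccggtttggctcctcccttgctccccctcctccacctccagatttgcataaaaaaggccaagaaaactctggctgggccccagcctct
Axin2: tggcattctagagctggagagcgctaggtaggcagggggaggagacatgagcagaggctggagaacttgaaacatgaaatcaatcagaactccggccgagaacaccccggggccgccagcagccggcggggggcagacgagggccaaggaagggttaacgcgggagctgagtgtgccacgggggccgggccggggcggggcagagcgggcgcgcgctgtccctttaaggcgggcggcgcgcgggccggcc
The Dkk1 promoter held 2 matches, at bases -174 (opposite strand) and -117 (gene strand) from the start. The letters did not occur in the other 3 windows. The table held 32 promoters of 29 member genes, and 5 of these promoters had a match, those of Dkk1, Frzb, Fzd1, Wnt11 and Wnt5b. Of all 32851 promoters of this length, 13.8% had one. GC content was 60.8% for Dkk1, 85.2% for Wnt4, 63.6% for Sfrp2 and 69.2% for Axin2, and the median over all promoters was 52.4%.

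The arrays of one age correlated with each other at 0.990 to 0.997 over all probes. The median SD within an age was 0.0816 log2 at E16d, 0.0993 at PN1d and 0.122 at PN7d. Markers of other tissues varied between arrays. The summed intensity of 11 adipocyte and brown fat markers lay at 708 to 745 at E16d, 718 to 755 at PN1d and 1122 to 7699 at PN7d, highest on PN7d replicate 1. That of 11 hepatocyte markers was 3273, 12474, 2798, 5061 and 1885 on PN1d replicates 1 to 5, against 1456 to 1908 at E16d. Of 7 hepatocyte markers tested, 5 were higher at PN1d than at E16d, where 21.4% of all genes were higher. The part of hepatocyte RNA in the PN1d values was not tested. Adrenal cortex markers, among them Cyp11a1 and Cyp21a1, were mostly below the median of all values. Kidney markers were present, including Aqp2 of the collecting duct and Wt1 of the podocyte. The study's methods describe male mice, but Kdm5d, a gene of the Y chromosome, was at 7.44 to 7.95 log2 on 5 arrays (E16d replicate 4, PN1d replicates 1 and 3, and PN7d replicates 1 and 3) and at 5.75 to 5.86 on the other 10. Both levels occurred within each age, so no age was a single RNA sample run 5 times. With its level as a covariate no member changed its call. In whole kidney RNA, fewer cells of a type and less RNA per cell cannot be told apart.

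All values are log2 intensities, and their overall median was 6.22, an intensity of 74.5. The values show no sign of a background subtraction, and changes of genes near 6.22 are understated for that reason. Of 18 Wnt ligands on the array, 8 passed the filter (Wnt4, Wnt5a, Wnt5b, Wnt7b, Wnt9b, Wnt10a, Wnt10b and Wnt11), as did Rspo1 and Rspo3 of 4 R-spondins, 9 of 10 Frizzled receptors, Lrp6, Sfrp1 and Sfrp2 of 4 Sfrp genes, Dkk1 and Dkk3 of 4 Dkk genes, Frzb, Wif1 and Axin2. The other 17 were Wnt1, Wnt2, Wnt2b, Wnt3, Wnt3a, Wnt6, Wnt7a, Wnt8a, Wnt9a, Wnt16, Rspo2, Rspo4, Fzd9, Sfrp4, Sfrp5, Dkk2 and Dkk4. Their values lay between 5.69 and 6.25 on every array. No probe for Lrp5 or Wnt8b was analysed here. In a fit with no filter, Wnt3a was the single one of the 17 past the test in any of the 3 comparisons, with a mean difference of -0.11 log2 between PN7d and E16d (adjusted p = 0.0163).

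At PN7d, Sfrp1 and Dkk3 were higher than at E16d and Dkk1, Sfrp2, Fzd3, Wnt4 and Rspo3 were lower, each by more than 1.5-fold. Sfrp1 had the largest increase of the members, and Dkk1 the largest decrease. Of the 27 members, 18 passed the test in this comparison (limma, adjusted p under 0.05), 7 higher and 11 lower, where 64.5% of all genes tested passed, 32.3% higher and 32.2% lower. The 5 arrays of one age lay wholly apart from those of the other for 12 members, against a background of 50.1%, and 7 members passed with a fold over 1.5, against 20.3%. The share of members called was thus near that of all genes. Fzd4, Fzd8, Wnt7b and Wnt10a passed the filter through their PN7d mean alone, and Rspo1 and Wnt10b through their E16d mean alone. For these 6 the filter itself favoured a higher value at that age, and 3 of them are among the 7 higher members and 1 among the 11 lower. Wnt11 and Dkk1, also among the 11 lower, passed through their E16d and PN1d means and not their PN7d mean, which favours a lower value at PN7d. At E16d, the mean of Wnt11 (6.25) was close to the filter and that of Dkk1 (7.18) was not. The median change of the 27 was -0.05 log2 and that of all genes was 0.00, and the members that passed the filter are the brighter part of the family.

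**Figure D1:**
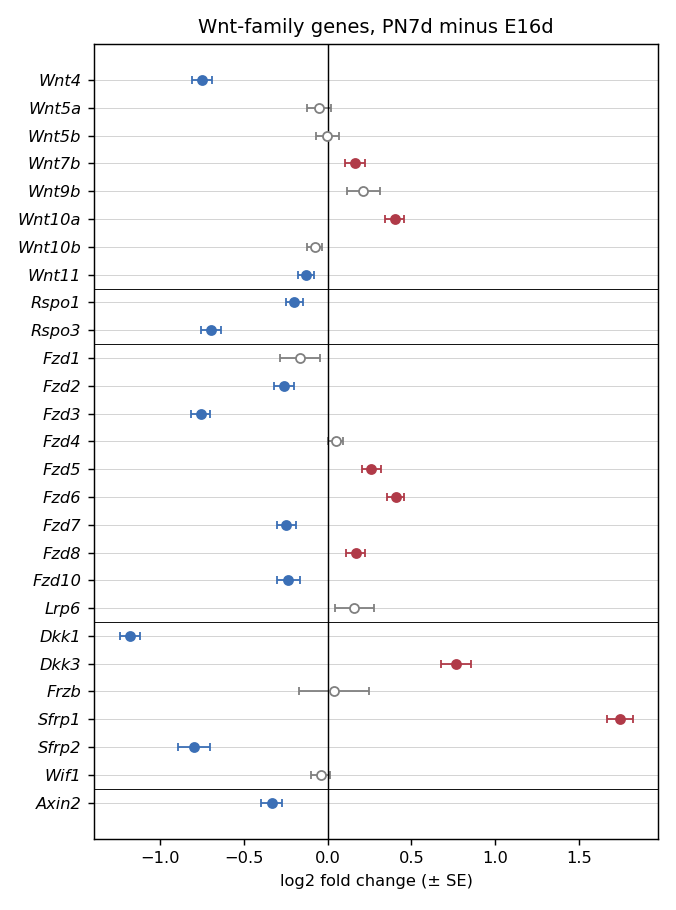
Log2 fold change of each of the 27 members, PN7d minus E16d, with bars of 1 SE (5 arrays per age), grouped as ligands, R-spondins, receptors, antagonists and Axin2. Filled red points were higher and filled blue points lower past the test, and open points did not pass; Sfrp1 stands at 1.74 and Dkk1, as measured and without its bound, at -1.18.

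Wnt4, the ligand needed for mesenchyme to become epithelium in the nephron, decreased in both steps. It was at 7.38, 7.46, 7.39, 7.38 and 7.35 log2 in E16d kidneys, at 7.04, 7.17, 7.15, 7.18 and 7.01 in PN1d kidneys, and at 6.51, 6.58, 6.63, 6.63 and 6.85 in PN7d kidneys. The 3 ages did not overlap, and PN7d replicate 5 was the highest of its age. Wnt4 was lower by 1.68-fold at PN7d than at E16d (log2 fold change -0.75 ± 0.06 SE, adjusted p = 1.28e-08). It fell by 0.28 ± 0.06 at PN1d relative to E16d (adjusted p = 0.000995) and by 0.47 ± 0.06 at PN7d relative to PN1d (adjusted p = 1.05e-05).

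The other ligands changed little or not past the test. Wnt10a, a ligand best known from teeth and skin, lay between 5.94 and 6.10 at E16d, between 6.08 and 6.24 at PN1d and between 6.33 and 6.62 at PN7d. The PN7d arrays were above all others, and since the E16d arrays were below the median of all values the gene was at least 1.15-fold higher at PN7d than at E16d (adjusted p = 1.35e-05). Wnt10a passed the filter through its PN7d mean alone, which favours a higher value at that age. The call at PN1d over E16d (adjusted p = 0.0499) has no fold, since both means were below 6.22, and it was lost without any 1 of 11 arrays (E16d replicates 2 to 5, PN1d replicates 2 to 5, and PN7d replicates 1, 2 and 4) (adjusted p of 0.0527 to 0.118). Wnt11, the ligand of the bud tips, averaged 6.25 ± 0.05 at E16d, 6.29 ± 0.06 at PN1d and 6.12 ± 0.07 at PN7d (SD, n = 5 each). It was lower at PN7d than at PN1d (at least 1.05-fold, adjusted p = 0.00854) and than at E16d (at least 1.02-fold, adjusted p = 0.0238), and the second call was lost without E16d replicate 1 or PN7d replicate 3 (-0.11 log2, adjusted p of 0.0629 to 0.0664). Wnt11 passed the filter through its E16d and PN1d means and not its PN7d mean, which favours a lower value at PN7d. The E16d mean was above the median of all values by less than its SD, so the bound against E16d is uncertain.

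Wnt7b of the collecting duct was near the median of all values throughout, between 5.98 and 6.35 on the 15 arrays. Its means were 6.24 ± 0.07 at PN7d and 6.08 ± 0.09 at E16d (SD, n = 5 each), a difference of 0.16 log2 (adjusted p = 0.0282) that did not pass without E16d replicate 3, 4 or 5 or PN7d replicate 1 or 5 (0.14 to 0.16, adjusted p of 0.0538 to 0.0745). The E16d mean lay below the median of all values. Wnt7b passed the filter through its PN7d mean alone, which favours a higher value at that age. Wnt9b, the inducer made by the ureteric bud, averaged 6.71 ± 0.10 at E16d, 6.84 ± 0.22 at PN1d and 6.93 ± 0.15 at PN7d, and the ages overlapped. It did not pass in any comparison; PN7d minus E16d was 0.21 ± 0.10 SE (adjusted p = 0.0615). Leaving out E16d replicate 1, PN1d replicate 1 or 2, or PN7d replicate 1 brought that difference past the test (0.21 to 0.27, adjusted p of 0.0224 to 0.0460).

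Wnt5a, a ligand of beta-catenin independent signalling through Ror2, had 2 probes past the filter. Neither passed in any comparison, and the brighter one averaged 8.42 ± 0.07 at E16d, 8.32 ± 0.11 at PN1d and 8.37 ± 0.16 at PN7d. Wnt5b and Wnt10b did not pass in any comparison either. Without PN7d replicate 1, Wnt5b was lower at PN7d than at PN1d (-0.18, adjusted p = 0.0395), and without E16d replicate 2 or PN1d replicate 1, Wnt10b was lower at PN1d than at E16d (-0.12 for each, adjusted p of 0.0454 to 0.0480).

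Among the R-spondins, Rspo3 held its level across birth and was lower after the first week. It was at 7.64, 7.68, 7.76, 7.70 and 7.75 log2 in E16d kidneys, at 7.96, 7.74, 7.63, 7.71 and 7.73 in PN1d kidneys, and at 7.04, 7.06, 6.97, 7.11 and 6.88 in PN7d kidneys. All 5 PN7d arrays were below the other 10, and the E16d and PN1d arrays overlapped. Rspo3 was lower by 1.67-fold at PN7d than at PN1d (log2 fold change -0.74 ± 0.06, adjusted p = 8.49e-08) and by 1.62-fold than at E16d (-0.69 ± 0.06, adjusted p = 3.55e-08), while PN1d minus E16d was 0.05 ± 0.06 (adjusted p = 0.535). A second Rspo3 probe was too dim for the filter, with means of 6.17 at E16d, 6.21 at PN1d and 5.99 at PN7d.

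Rspo1 was dim, with means of 6.24 ± 0.07 at E16d, 6.22 ± 0.07 at PN1d and 6.04 ± 0.08 at PN7d (SD, n = 5 each). It was lower at PN7d than at E16d (at least 1.01-fold, adjusted p = 0.0037) and than at PN1d (log2 fold change -0.18, adjusted p = 0.0124, with no bound, since the PN1d mean was below 6.22 as well). The E16d mean was above the median of all values by less than its SD, so the bound against E16d is uncertain. Rspo1 passed the filter through its E16d mean alone, which favours a higher value at that age.

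**Figure D2:**
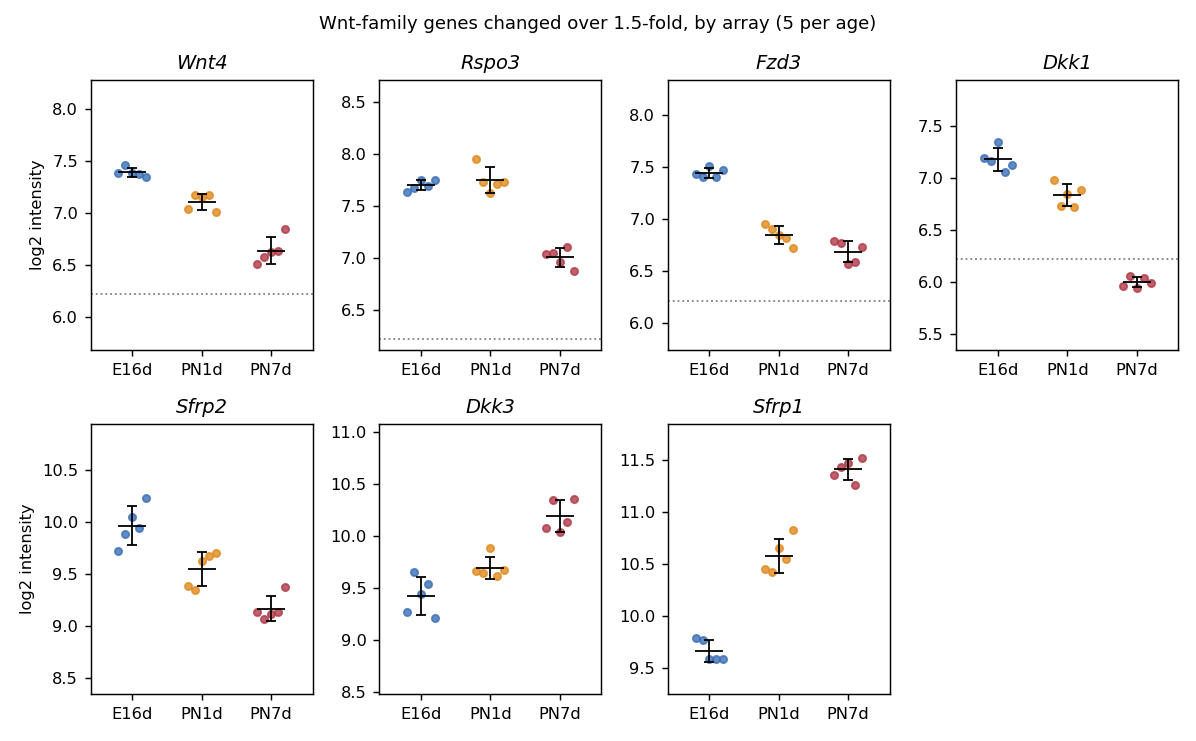
Log2 intensity of the 7 members that changed by more than 1.5-fold, 1 point per array (5 per age), with the mean and bars of 1 SD; the dotted line, where in range, is the median of all values (6.22). Dkk1 lies below that line on all 5 PN7d arrays, and Sfrp1 lies above 11.2 on the same arrays.

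The Frizzled receptors did not change as a group. At PN7d against E16d, Fzd5, Fzd6 and Fzd8 were higher, Fzd2, Fzd3, Fzd7 and Fzd10 were lower, and Fzd1 and Fzd4 did not pass. Fzd3, a receptor known from planar cell polarity and axon guidance, had the largest decrease, and most of it fell in the step across birth. Its values were 7.44, 7.41, 7.52, 7.41 and 7.47 log2 in E16d kidneys, 6.95, 6.91, 6.85, 6.82 and 6.72 in PN1d kidneys, and 6.79, 6.77, 6.57, 6.59 and 6.73 in PN7d kidneys. Every E16d array was above every postnatal array, and the 2 postnatal ages overlapped. Fzd3 was lower by 1.51-fold at PN1d than at E16d (log2 fold change -0.60 ± 0.06, adjusted p = 3.01e-07) and by 1.69-fold at PN7d than at E16d (-0.76 ± 0.06, adjusted p = 5.12e-09). The further decrease at PN7d relative to PN1d was -0.16 ± 0.06 (adjusted p = 0.0287), and it did not pass without PN1d replicate 1 or 2 or PN7d replicate 3 or 4 (-0.14 to -0.13, adjusted p of 0.0657 to 0.0797).

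Fzd7 and Fzd5 were lowest at PN1d. Fzd7 was at 8.53, 8.70, 8.70, 8.80 and 8.73 log2 in E16d kidneys, at 8.28, 8.38, 8.33, 8.25 and 8.21 in PN1d kidneys, and at 8.55, 8.36, 8.48, 8.42 and 8.42 in PN7d kidneys. The PN1d arrays were below all E16d arrays (log2 fold change -0.40 ± 0.06, adjusted p = 1.71e-05) and overlapped the PN7d arrays. Fzd7 was higher at PN7d than at PN1d by 0.16 ± 0.06 (adjusted p = 0.0289), which did not pass without PN1d replicate 1, 4 or 5 or PN7d replicate 1 or 3 (0.13 to 0.15, adjusted p of 0.0507 to 0.0762) nor with the replicate number as a block (adjusted p = 0.0547). It was lower at PN7d than at E16d (-0.25 ± 0.06, adjusted p = 0.000909).

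Fzd5 was at 8.24, 8.22, 8.20, 8.34 and 8.06 log2 in E16d kidneys, at 8.01, 7.9997, 8.08, 8.01 and 8.10 in PN1d kidneys, and at 8.41, 8.58, 8.56, 8.48 and 8.33 in PN7d kidneys. Each PN7d array was above each PN1d array, and 1 E16d array each reached into the range of PN1d and of PN7d. A second Fzd5 probe was too dim for the filter and did not show this order, with means of 6.03 at E16d, 6.08 at PN1d and 6.04 at PN7d. The increase at PN7d over PN1d was 0.43 ± 0.06 log2 (adjusted p = 2.12e-05) and that over E16d 0.26 ± 0.06 (adjusted p = 0.00095). The decrease at PN1d relative to E16d was -0.17 ± 0.06 (adjusted p = 0.0249) and did not pass without E16d replicate 4 or PN1d replicate 1, 2 or 4 (-0.16 to -0.14, adjusted p of 0.0501 to 0.0731).

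Fzd6, a receptor of planar cell polarity in the skin of the mouse, changed across birth in the opposite direction to Fzd3. It was at 7.70, 7.72, 7.82, 7.90 and 7.89 log2 in E16d kidneys, at 8.33, 8.29, 8.29, 8.34 and 8.22 in PN1d kidneys, and at 8.17, 8.29, 8.21, 8.15 and 8.24 in PN7d kidneys. All postnatal arrays were above all E16d arrays. Fzd6 was higher by 1.4-fold at PN1d than at E16d (log2 fold change 0.49 ± 0.05, adjusted p = 9.21e-07) and by 1.33-fold at PN7d than at E16d (0.41 ± 0.05, adjusted p = 2.50e-06).

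Fzd10 averaged 6.63 ± 0.07 log2 at E16d, 6.72 ± 0.11 at PN1d and 6.39 ± 0.15 at PN7d (SD, n = 5 each). It was lower at PN7d than at PN1d (-0.33 ± 0.07 SE, adjusted p = 0.00124) and than at E16d (-0.23 ± 0.07, adjusted p = 0.00804). Fzd2 averaged 7.35 ± 0.07 at E16d, 7.27 ± 0.06 at PN1d and 7.09 ± 0.14 at PN7d, and was lower at PN7d than at E16d (-0.26 ± 0.06, adjusted p = 0.00123), with no overlap of the arrays. Its decrease relative to PN1d (-0.18, adjusted p = 0.0257) did not pass without PN1d replicate 1, 4 or 5 or PN7d replicate 3 or 5 (-0.17 to -0.13, adjusted p of 0.0503 to 0.0744).

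Fzd8 was dim, at 6.18 ± 0.07 at E16d, 6.17 ± 0.09 at PN1d and 6.35 ± 0.07 at PN7d, and was higher at PN7d than at PN1d (0.18, adjusted p = 0.0138) and than at E16d (0.17, adjusted p = 0.0138). Both of the lower means were below the median of all values, so these differences are of values that are partly not above it. Fzd8 passed the filter through its PN7d mean alone, which favours a higher value at that age. Fzd1, Fzd4 and the coreceptor Lrp6 did not pass in any comparison. Without PN7d replicate 5, Fzd1 was lower at PN7d than at E16d (-0.26, adjusted p = 0.0461). The Lrp6 arrays averaged 8.04 ± 0.04 at E16d, 8.02 ± 0.21 at PN1d and 8.20 ± 0.28 at PN7d, with a wider spread after birth.

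**Figure D3:**
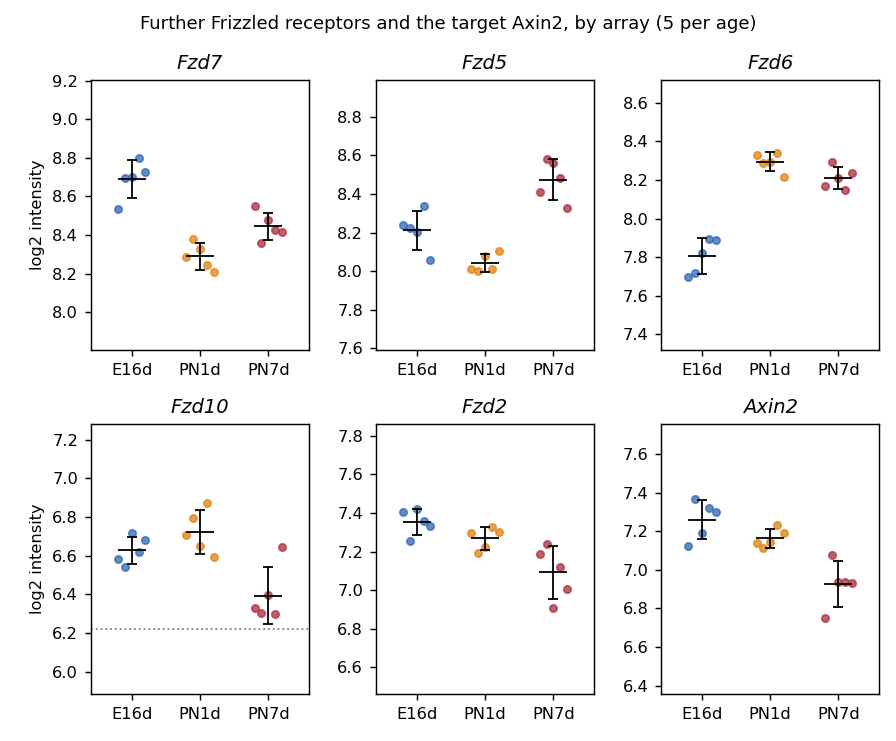
Log2 intensity of Fzd7, Fzd5, Fzd6, Fzd10, Fzd2 and Axin2, 1 point per array (5 per age), with the mean and bars of 1 SD. The dotted line, in range for Fzd10 only, is the median of all values (6.22). Fzd7 and Fzd5 are lowest at PN1d, and all postnatal Fzd6 arrays lie above the E16d arrays.

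The secreted antagonists held the largest changes, in both directions. Sfrp1, which binds Wnt ligands outside the cell, was at 9.79, 9.77, 9.59, 9.58 and 9.59 log2 in E16d kidneys, at 10.45, 10.42, 10.65, 10.54 and 10.82 in PN1d kidneys, and at 11.35, 11.43, 11.47, 11.26 and 11.52 in PN7d kidneys. The 3 ages were fully separate. Sfrp1 was higher by 1.89-fold at PN1d than at E16d (log2 fold change 0.92 ± 0.08, adjusted p = 1.00e-07), by 1.78-fold at PN7d than at PN1d (0.83 ± 0.08, adjusted p = 3.97e-07) and by 3.35-fold at PN7d than at E16d (1.74 ± 0.08, adjusted p = 1.30e-11).

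Sfrp2, of the same family, changed the other way. It was at 9.73, 9.89, 10.05, 9.94 and 10.23 log2 in E16d kidneys, at 9.39, 9.35, 9.62, 9.68 and 9.70 in PN1d kidneys, and at 9.14, 9.07, 9.12, 9.14 and 9.38 in PN7d kidneys. The E16d arrays were above all postnatal arrays, and PN7d replicate 5 reached into the PN1d range. Sfrp2 was lower by 1.74-fold at PN7d than at E16d (log2 fold change -0.80 ± 0.09, adjusted p = 1.37e-06), by 1.34-fold at PN1d than at E16d (-0.42 ± 0.09, adjusted p = 0.00154) and by 1.30-fold at PN7d than at PN1d (-0.38 ± 0.09, adjusted p = 0.00371).

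Dkk1, the inhibitor of Lrp5 and Lrp6 whose promoter held the 2 TCF motif matches, fell below the median of all values at PN7d. Its values were 7.20, 7.16, 7.35, 7.06 and 7.13 log2 in E16d kidneys, 6.98, 6.73, 6.85, 6.73 and 6.89 in PN1d kidneys, and 5.96, 6.06, 5.94, 6.04 and 5.99 in PN7d kidneys. The ages were fully separate, and the PN7d arrays had an SD of 0.05. Set against the median of all values, Dkk1 was at least 1.95-fold lower at PN7d than at E16d (adjusted p = 7.53e-11) and at least 1.53-fold lower than at PN1d (adjusted p = 2.62e-08). It was lower by 1.27-fold at PN1d than at E16d (log2 fold change -0.35 ± 0.06, adjusted p = 0.000186).

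Dkk3, a divergent member of the same family, increased instead. It was at 9.27, 9.65, 9.44, 9.54 and 9.21 log2 in E16d kidneys, at 9.67, 9.64, 9.88, 9.61 and 9.67 in PN1d kidneys, and at 10.07, 10.35, 10.04, 10.14 and 10.35 in PN7d kidneys. All PN7d arrays were above the other 10, whereas E16d and PN1d overlapped. A second Dkk3 probe was too dim for the filter, with a mean of 5.88 at each age. Dkk3 was higher by 1.70-fold at PN7d than at E16d (log2 fold change 0.77 ± 0.09, adjusted p = 1.14e-06) and by 1.41-fold than at PN1d (0.50 ± 0.09, adjusted p = 0.000293). The increase at PN1d over E16d (0.27 ± 0.09, adjusted p = 0.0195) did not pass without E16d replicate 1 or 5 or PN1d replicate 3 (0.22 to 0.23, adjusted p of 0.0533 to 0.0593).

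Frzb and Wif1 did not pass in any comparison. Wif1 was dim and even, between 6.19 and 6.52 on the 15 arrays. Frzb, the Sfrp-like antagonist first known from cartilage, was at 7.03 and 7.22 on E16d replicates 2 and 4 and at 7.03, 6.88 and 6.79 on PN7d replicates 1, 2 and 4. On the other 10 arrays, all PN1d arrays among them, it lay between 6.14 and 6.25.

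Axin2, the scaffold of beta-catenin degradation that Wnt signalling itself induces, averaged 7.26 ± 0.10 log2 at E16d, 7.16 ± 0.05 at PN1d and 6.93 ± 0.12 at PN7d (SD, n = 5 each). All PN7d arrays were below all others. Axin2 was lower at PN7d than at E16d (log2 fold change -0.33 ± 0.06 SE, adjusted p = 0.000142) and than at PN1d (-0.24 ± 0.06, adjusted p = 0.00473), and PN1d minus E16d was -0.10 ± 0.06 (adjusted p = 0.21). With the adipocyte marker level as a covariate, PN7d minus E16d was -0.19 (adjusted p = 0.0429) and PN7d minus PN1d -0.09 (adjusted p = 0.369), and the part of adipose tissue in it was not tested further.

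Across birth, 10 of the 27 members passed the test, 4 higher and 6 lower at PN1d than at E16d, where 46.3% of all genes passed, 21.4% higher and 24.9% lower. The arrays did not overlap for 7 members (background 37%), and 2 members, Sfrp1 and Fzd3, passed with a fold over 1.5 (background 8.55%). The 4 higher calls were 2 without E16d replicate 5 and 2 without PN1d replicate 3. Over the first week, 16 passed, 6 higher and 10 lower at PN7d than at PN1d, where 45.4% of all genes passed, 24.1% higher and 21.2% lower. The arrays did not overlap for 9 members (background 27.8%), and Dkk1, Rspo3 and Sfrp1 passed with a fold over 1.5 (background 7.64%). With the level of 4 adipocyte markers (Ucp1, Cidea, Cox8b and Adipoq; mean intensity 155 to 1782 at PN7d and 60.7 to 63.0 at E16d) as a covariate, 6 members were lower in that step. The calls lost there, beside Axin2, were those of Fzd2 (-0.21, adjusted p = 0.0896), Fzd3 (-0.19, adjusted p = 0.0984), Fzd7 (0.08, adjusted p = 0.436), Fzd8 (0.20, adjusted p = 0.0677) and Rspo1 (-0.19, adjusted p = 0.0761). The marker level was raised at PN7d only (59.7 to 63.3 at PN1d), so with it a difference to PN7d is estimated less precisely. For Fzd2, Fzd3, Fzd8 and Rspo1 the estimate was no smaller with the covariate, whereas for Axin2 and Fzd7 it was smaller. The part of adipose tissue was not tested. At PN7d against E16d, Fzd8 (0.19, adjusted p = 0.0585), Fzd10 (-0.22, adjusted p = 0.0902) and Wnt7b (0.17, adjusted p = 0.129) no longer passed, while Wnt9b did (0.40, adjusted p = 0.0132). The 7 members with a fold over 1.5 at PN7d against E16d passed with this covariate too.

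**Figure D4:**
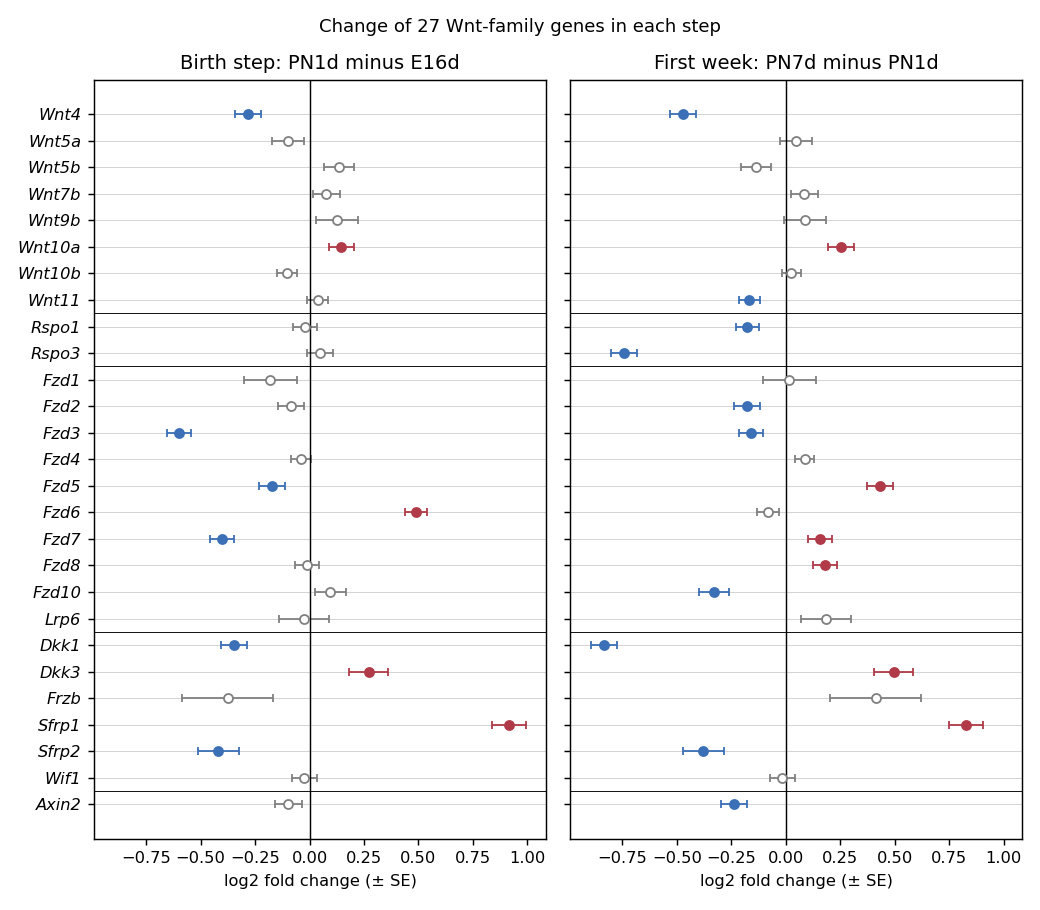
Log2 fold change of each of the 27 members in the 2 steps, PN1d minus E16d on the left and PN7d minus PN1d on the right, with bars of 1 SE. Filled red points were higher and filled blue points lower past the test; Fzd3 and Fzd6 have their larger change on the left, and Rspo3 and Dkk1 on the right.

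The timing was compared within genes by testing whether the change of the first week differed from the change across birth, a test chosen after the values were seen. The steps differed for 7 of 27 members, where 27.4% of all genes passed. The first-week change was the more negative one for Rspo3 (difference of the 2 changes -0.79 ± 0.10 SE, adjusted p = 4.18e-05), Fzd6 (-0.57 ± 0.09, adjusted p = 0.000177), Dkk1 (adjusted p = 0.0025) and Fzd10 (-0.42 ± 0.12, adjusted p = 0.0164). It was the more positive one for Fzd5 (0.60 ± 0.10, adjusted p = 0.000386), Fzd7 (0.56 ± 0.10, adjusted p = 0.000427) and Fzd3 (0.44 ± 0.10, adjusted p = 0.00306). For Dkk1 the difference is a bound of -0.27 with the PN7d level set at the median of all values, and that bound was not tested. Rspo3 thus decreased more in the first week, and Fzd3 decreased more across birth. For Sfrp1 (-0.09 ± 0.13, adjusted p = 0.668) and Sfrp2 (0.04 ± 0.16, adjusted p = 0.879) no difference between the steps was detected. The call for Fzd10 was lost without PN1d replicate 4 (-0.35, adjusted p = 0.0607) and with the adipocyte covariate (-0.41, adjusted p = 0.0585). Wnt4 (-0.24, adjusted p = 0.0421) and Wnt11 (-0.23, adjusted p = 0.0410) passed without PN7d replicate 5, and Wnt5b (-0.31, adjusted p = 0.0489) without PN7d replicate 1.

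Other genes of the pathway were read from 5 lists at PN7d against E16d, where 64.5% of all genes passed the test, 32.3% higher and 32.2% lower, with a median of 0.00. Of 17 genes of Wnt secretion and receptor turnover, 7 were higher and 8 lower (median log2 fold change -0.02). Sostdc1, a secreted antagonist of Wnt and BMP signals in kidney tubules, was higher (0.90 ± 0.07 SE, adjusted p = 7.66e-09), as was Reck, a cofactor of Wnt7 ligands (0.89 ± 0.18, adjusted p = 0.000476). Tpbg, a membrane protein that dampens Wnt signalling, was lower (-1.15 ± 0.09, adjusted p = 1.98e-08). Lgr5, a receptor of R-spondins, averaged 5.96 at PN7d, below the median of all values, and 6.44 at E16d (adjusted p = 3.96e-07).

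Inside the cell, 3 of 17 genes of the beta-catenin destruction complex and Dishevelled were higher and 6 lower (median -0.12; 64.5% of all genes were called). Dvl1, a Dishevelled protein that relays the signal from Frizzled, was higher (1.17 ± 0.14, adjusted p = 1.18e-06), as was Nkd2, which binds Dishevelled (0.37 ± 0.10, adjusted p = 0.00332). Tnks2, a tankyrase that marks Axin for degradation, was lower (-0.46 ± 0.07, adjusted p = 1.50e-05), as was Ppp2r1a, the scaffold subunit of phosphatase PP2A (-0.40 ± 0.07, adjusted p = 0.000148). Of 14 TCF factors and coactivators, 2 were higher, namely the corepressor Tle2 (0.58 ± 0.15, adjusted p = 0.00246) and Tcf7l2 (0.19 ± 0.07, adjusted p = 0.0250). In this list 9 were lower (median -0.20), with the coactivator Pygo1 (-0.54 ± 0.05, adjusted p = 3.09e-08) and the corepressor Tle1 (-0.45 ± 0.08, adjusted p = 9.68e-05) changed most.

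Of 13 planar cell polarity genes, 1 was higher and 5 were lower (median -0.10; 64.5% of all genes were called). The cadherin Celsr2 was higher (1.07 ± 0.09, adjusted p = 2.04e-08), and Fjx1 (-0.46 ± 0.12, adjusted p = 0.00319) and the kinase Mapk8 (-0.38 ± 0.13, adjusted p = 0.0173) were lower. Of 12 Wnt target genes, 1 was higher and 9 were lower (median -0.34), against 32.3% higher and 32.2% lower and a median of 0.00 over all genes. Sp5 was higher (0.24 ± 0.08, adjusted p = 0.0122). Sox9, a transcription factor of the ureteric bud tips (-2.04 ± 0.19, adjusted p = 9.46e-08), and Birc5, which acts in mitosis (-1.71 ± 0.13, adjusted p = 6.82e-09), were lower. The cyclins Ccnd2 (-0.92) and Ccnd1 (-0.25) were lower too, and Rnf43 (-0.02) and Jun (-0.17) did not pass. The part of cell division in these changes was not tested. Lgr5, Rnf43 and Lef1 also stand in the lists above, and Ccnd1 is also one of the nephron induction markers below. Tro (-0.90), the gene of trophinin, was also counted among the 9 lower genes. The Wnt target called Troy is Tnfrsf19, which the list held as well (-0.37). Tro is another gene, so the counts and the median of this list include 1 gene that is not an established Wnt target.

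**Figure D5:**
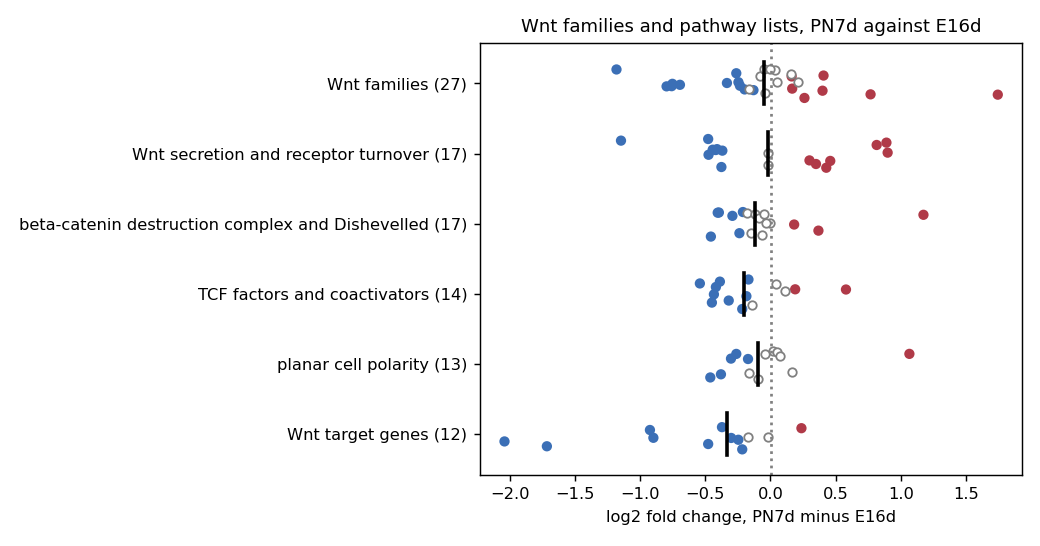
Log2 fold change, PN7d minus E16d, of the 27 Wnt family members and of the tested genes of 5 pathway lists (number in brackets), 1 point per gene. Filled red points were higher and filled blue points lower past the test, black bars are medians and the dotted line is the median of all genes (0.00). The Wnt target genes, with Tro counted among them, have the lowest median, -0.34.

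Markers of the cell types in which these genes act moved over the same ages, where 32.3% of all genes were higher and 32.2% lower at PN7d than at E16d. All 4 ureteric bud tip markers tested were lower at PN7d than at E16d (Gfra1 by -1.91 log2, Etv4 by -1.80), as were 5 of 7 nephron induction markers (Lhx1 by -0.93, Dll1 by -0.56). Of 7 cap mesenchyme markers 4 were lower (Gdnf by -3.38, Sall1 by -0.68) and 1, Itga8, was higher, and no probe for Six2 was analysed here. Of 9 collecting duct markers 8 were higher (Aqp2 by 1.20, Scnn1b by 1.13). Stroma markers went both ways, with 3 of 8 higher (Dcn by 0.59) and 3 lower (Foxd1 by -1.14). The summed intensity of the 9 cap mesenchyme markers on the array was 1325 to 1667 at PN7d and 2540 to 3045 at E16d, that of the 6 ureteric bud tip markers 494 to 541 at PN7d and 1121 to 1264 at E16d, and that of the 10 collecting duct markers 8627 to 9426 at PN7d and 5520 to 6114 at E16d. Gdnf, at 9.82 log2 at E16d and 6.44 at PN7d, made up much of the fall in the cap mesenchyme sum, and Meox1 and Crym did not pass the test. The part of these cell types in the changes of the Wnt genes was not tested.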

How the data were processed

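Total RNA of 15 mouse kidney samples was hybridised to Illumina MouseRef-8 arrays. Per the study's methods, the authors read the arrays with BeadStudio and quantile normalized the intensities; the values deposited by the authors are on the log2 scale, as judged from their range (5.56 to 13.80). A second deposited table, of 30 columns of signals and detection p-values, could not be tied to ages and was not used. Probes were named through the platform annotation. A named probe entered the test if its mean in any age exceeded the median of all values (6.22), and the brightest probe stood for a gene. The 3 ages were fitted to 9531 genes with limma 3.58.1 (R 4.3.3), with Benjamini-Hochberg adjustment over all genes per comparison at 0.05, and the code was tested on simulated data. Where no array of the dimmer age exceeded that median, the fold of a member was computed against the median and given as a lower bound, or not given where the brighter mean was below it too. The adjusted p beside such a bound is that of the measured difference, and the bound itself was not tested. Every member was named, values per array were given for members past the test with a fold over 1.5 (and for Fzd5, Fzd6 and Fzd7, added after their values were seen), and the 2 largest increases and decreases of each pathway list were named. The members and lists were chosen with earlier results of these data known. Alternatives were other filters, probe rules, variance models, background correction, covariates and leaving out each array. The number of arrays limits the precision.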

Additional observations from a re-analysis of the deposited data

Results flagged for a closer look

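The highest or lowest array of an age stood apart from the other 4 (Dixon's test, critical value 0.71) in 5 of 81 groups, where chance alone gives about 1 in 20. On PN7d replicate 5, Sfrp2 was at 9.38 (next 9.14), Wnt5a at 8.65 (next 8.34) and Fzd10 at 6.64 (next 6.39), each the highest of its age. Dkk3 was highest on PN1d replicate 3 at 9.88 (next 9.67). Wnt7b was lowest on PN7d replicate 4 at 6.13 (next 6.25). The summed stroma marker intensity was also highest among PN7d arrays on replicate 5, at 11562, close to replicate 4 at 11478, and its part in these values was not tested.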

How the results depend on the processing

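Of 81 comparisons of a member between 2 ages, 44 passed the test, 31 of these under every alternative in which the gene was tested, and 13 were lost in at least 1; of 37 that did not pass, 4 passed in an alternative, and 0 reversed. With the filter at the upper quartile of all values fewer genes were tested: members lower at PN1d against E16d numbered 3, members higher and lower at PN7d against E16d 4 and 3, members lower at PN7d against PN1d 2, and members with a more negative first week 2. Under that filter all genes numbered 1942 higher and 2025 lower at PN7d against E16d, 1436 higher at PN7d against PN1d and 906 with a more positive first week, and the lists of secretion, destruction complex, planar cell polarity and target genes had 5, 3, 3 and 5 lower. A fold over 1.5 with no test gave 1 member higher and 1 lower at PN1d against E16d, 2 and 5 at PN7d against E16d, and 1 and 2 at PN7d against PN1d; for all genes these were 516 and 319, 1043 and 910, and 395 and 355. The adipocyte covariate left 6 members lower at PN7d against PN1d. Leaving out 1 array gave 2 to 4 members higher at PN1d against E16d, 1 to 3 TCF genes higher (1 without E16d replicate 3 or 5 or PN7d replicate 3) and 1 to 2 planar cell polarity genes higher (2 without PN7d replicate 3). Replicate numbers did not pair the samples (correlations of -0.23 to 0.21); with the replicate number as a block, 3 members were higher and 6 lower at PN1d against E16d, and the calls lost were Fzd7 at PN7d against PN1d and Wnt10a at PN1d against E16d. A normexp background correction, which widens dim changes, moved Dkk1 to -1.94 at PN7d against E16d and -1.46 against PN1d, Wnt10a to 0.77 and 0.46, Fzd10 to -0.39 and -0.53, Rspo1 to -0.40 and -0.36, Wnt11 to -0.26 and -0.32 and Fzd8 to 0.31 and 0.34. It moved Wnt7b to 0.33 at PN7d against E16d, Wnt10a to 0.30 at PN1d against E16d, and the step differences of Dkk1 and Fzd10 to -0.98 and -0.68. Fitted on the arrays of the 2 ages alone, Fzd2 and Fzd3 did not pass at PN7d against PN1d (adjusted p = 0.0532 and 0.0645) and Wnt9b passed at PN7d against E16d (0.0266). At PN1d against E16d, Wnt10b passed with no filter (0.0441), with a trended robust variance (0.0323) and with normexp (0.0294), and Wnt10a was lost with no filter (0.0549) and with the adipocyte covariate (0.0571). Fzd7 at PN7d against PN1d was lost with the trended robust variance (0.0512). The step difference of Wnt11 passed with that variance (0.0408) and with normexp (0.0382). The cause of these changes was not tested. Detection p-values were not used, so what is above background is not known for dim genes.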
